A study of Mus musculus with 6 samples.

Results

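The genes described here are 40 interferon-stimulated genes, chosen by name from a list of genes that interferons are known to induce and matched by gene ID to mouse symbols, synonyms allowed. All 40 were found among the 24532 gene IDs that the 6 libraries share. Expression was measured by RNA-seq in cells sorted from the bone marrow of C57BL/6J mice, in 3 populations with 2 libraries each, which the labels call biological duplicates. BaP, labelled a basophil precursor, was sorted as lineage-negative, CD34+, ckit- cells that bind MAR1, an antibody against FcεRIα, the IgE-binding chain of the receptor FcεRI. The other populations, MAR1HI and MAR1INT, were both lineage-negative, CD34- and ckit-, carried CD200R3, a receptor found on basophils and mast cells, and bound MAR1 at a high or an intermediate level. No population was treated with interferon or infected according to the labels, and the labels do not say how many mice went into a library, so p-values measure the spread between these libraries.

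Type I and type III interferons signal through receptor-bound JAK kinases to a complex that holds STAT2 and IRF9 and binds the interferon-stimulated response element (ISRE). Interferon gamma signals through JAK1 and JAK2 to STAT transcription factors that bind the gamma-activated site (GAS). The genes switched on in this way encode antiviral effectors, sensors of foreign nucleic acid and further signalling factors. Many are also made at a low, steady level without infection, and stem and progenitor cells are known to keep some of them high, the small membrane proteins of the IFITM family among them.

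The coverage and FPKM columns of the libraries implied 4.75 to 5.28 aligned gigabases per library, and 9604 to 11544 genes reached 1 TPM (a transcript level corrected for gene length and library size, which sums to the same total in each library). All 9 basophil markers were present, with a summed level of 17130 and 21990 TPM in BaP, 21940 and 18300 TPM in MAR1HI and 14360 and 11730 TPM in MAR1INT. Mcpt8, Prss34 and Cpa3 supplied most of each sum. In MAR1INT 4 of the markers were higher than in BaP (Gata2, Hdc, Il4 and Cd200r3) and 4 lower (Cpa3, Fcer1a, Mcpt8 and Prss34). Markers of other cells differed between the populations. The 8 eosinophil markers summed to 2160 and 1146 TPM in BaP against 81.3 to 228.3 TPM in the 4 other libraries, and of these markers Il5ra stayed under 1 TPM in every library. The 10 conventional dendritic cell markers summed to 997.1 and 352.2 TPM in BaP, 73.4 and 60.6 TPM in MAR1HI and 16.1 and 24.3 TPM in MAR1INT, with Zbtb46 and Xcr1 under 1 TPM throughout. Most of the BaP sums came from the class II genes H2-Aa, H2-Ab1 and H2-Eb1 and from Cd74. In BaP replicate 1 these were at 172.1, 235.5, 199.1 and 353.5 TPM. Flt3, Clec9a, Cd209a and Itgax were at 0.47, 2.62, 7.36 and 26.5 TPM in that library. The 15 monocyte and macrophage markers summed to 678.4 and 661.4 TPM in BaP, 575.7 and 656.1 TPM in MAR1HI and 984.3 and 979.4 TPM in MAR1INT, and 9 of them were lower and 1 (Ccr2) higher in MAR1INT than in BaP. The 13 neutrophil markers summed to 4896 and 10290 TPM in BaP, 4283 and 3105 TPM in MAR1HI and 4124 and 3570 TPM in MAR1INT. In sorted bulk samples, fewer cells of a type and less RNA per cell cannot be told apart.

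Which interferon-stimulated genes differed between the populations was asked on log2(TPM + 1) with limma, fitted on the 11337 genes that reached 1 TPM in at least 2 libraries. A gene is called higher or lower below where its Benjamini-Hochberg adjusted p was under 0.05. Of the 40 genes 39 could be tested. Ifi44, which encodes a cytoplasmic protein of the interferon response, was under the filter, at 0.70 and 0.37 TPM in BaP, 0 and 0.18 TPM in MAR1HI and listed at 0 in both MAR1INT libraries.

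MAR1INT and BaP stood furthest apart. Ifitm1, Zbp1, Samd9l, Irf9, Irf1 and Rtp4 were higher in MAR1INT, and Gbp3, Oas1a, Ifit3, Bst2, Oasl2 and Ifitm2 were lower. These 12 are 30.8% of the 39 tested, beside 31.5% of all tested genes, so the list was called about as often as the genes at large. By direction, 6 were higher (15.4%, beside 11.1% of all genes) and 6 lower (15.4%, beside 20.4%). Whether called or not, the libraries of the 2 groups did not overlap for 30 members (76.9%, beside 68.9% of all genes), 18 higher (46.2%, beside 29.7%) and 12 lower (30.8%, beside 39.1%). The median log2 change of the list was 0.17, beside -0.16 over all tested genes. Other scalings moved this split. It was 6 higher and 9 lower with FPKM, 11 and 4 after quantile normalization, and 11 and 5 after median-of-ratios scaling. The split of all genes moved as well. Of all genes called, 35.3% were higher as reported and 27.8% with FPKM. That share was 55.1% after quantile normalization and 41.2% after median-of-ratios scaling. With either BaP library left out, fewer members were called, and so were fewer genes over the whole table. Ifitm1 (higher) and Gbp3 (lower) were called in both fits. Without BaP replicate 1 the median log2 change was 0.16 for the list and -0.17 for all genes. Without BaP replicate 2 these medians were 0.22 and -0.15. In the same comparison, beside 20.4% of all genes called lower, 7 of 10 conventional dendritic cell markers were lower in MAR1INT and none higher. Of 13 neutrophil markers 6 were lower and none higher. Of 15 monocyte and macrophage markers 9 were lower and 1 higher (Ccr2), of 8 eosinophil markers 5 were lower and 1 higher (Siglecf), and of 11 plasmacytoid dendritic cell markers 2 were lower (one of them Bst2 itself) and 1 higher (Runx2). The part of these cells in the calls of the list, and of the related lists below, was not tested.

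Between the CD34- populations, Ifitm1 was higher in MAR1INT than in MAR1HI, and Gbp3, Oas1a, Bst2 and Ifitm2 were lower. These 5 are 12.8% of the list, beside 16.8% of all tested genes. The 1 higher gene is 2.56% of the list beside 2.29% of all genes, and the 4 lower genes are 10.3% beside 14.5%. The libraries did not overlap for 18 members (46.2%, beside 55% of all genes), 9 higher (23.1%, beside 12.7%) and 9 lower (23.1%, beside 42.2%). The list's median log2 change was -0.05 and that of all genes -0.36. The split was 2 higher and 4 lower with FPKM, 6 and 1 after quantile normalization, and 6 and 2 after median-of-ratios scaling. Of all genes called, 13.7% were higher as reported and 16.5% with FPKM. That share was 45.3% after quantile normalization and 39.5% after median-of-ratios scaling. When any of the 4 BaP and MAR1HI libraries was left out, only Ifitm1 was still called, and fewer genes were called over the whole table as well.

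Between MAR1HI and BaP, Samd9l alone was called, higher in MAR1HI. That is 2.56% of the list, beside 2.49% of all genes (1.83% called higher and 0.662% called lower). No member was called lower by limma in this comparison, while 9 members (23.1%, beside 17.5% of all genes) had an unadjusted p under 0.05 in either direction. The libraries did not overlap for 21 members (53.8%, beside 53.5% of all genes), 15 higher (38.5%, beside 38.2%) and 6 lower (15.4%, beside 15.3%). The median log2 change was 0.10 for the list and 0.24 for all genes. The call on Samd9l was lost at a pseudocount of 0.1, in the unfiltered table and with an untrended variance prior. It was also lost when 1 of the 4 BaP and MAR1HI libraries was left out, whichever it was. Far fewer of all genes were called in those fits and in the unfiltered table (3 higher and 1 lower of 18601). Whether these losses are particular to Samd9l was not tested. Its log2 change was 1.17 to 1.98 over the 16 alternatives. Limma on BaP and MAR1HI alone called 3 members (Samd9l higher, Ifit3 and Gbp3 lower), beside 718 higher and 344 lower of all 11337 genes.

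**Figure D1:**
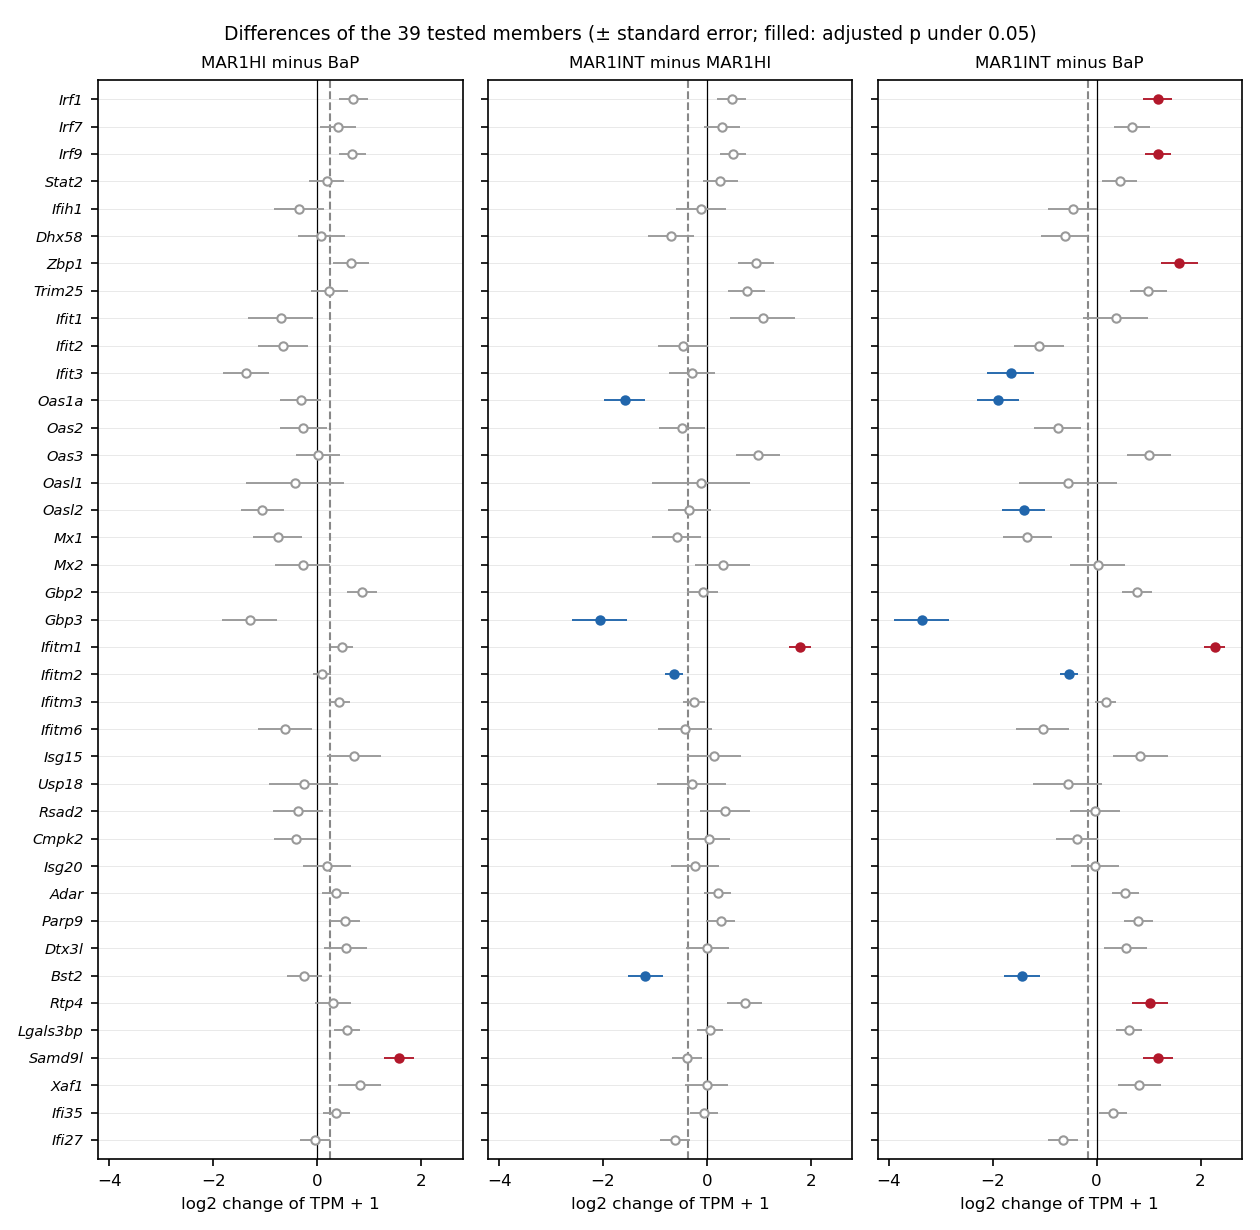
Log2 change of TPM + 1 (horizontal axis) of the 39 tested interferon-stimulated genes in each of the 3 comparisons, in order of role; bars are standard errors of the limma fit, filled points passed an adjusted p of 0.05 (red higher, blue lower), and the dashed line is the median of all tested genes. The filled points number 1, 5 and 12 from left to right, and Ifitm1 and Gbp3 lie at the outer ends of the right panel.

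Promoters were compared with these calls, because members of the list moved in opposite directions. RefSeq windows of 300 bases on GRCm38.p6, 250 before and 50 after an annotated start site, were at hand for 31 of the 40 genes. Zbp1, Rtp4, Dhx58, Oas2, Mx1, Mx2, Usp18, Parp9 and Ifi27 had no entry. The ISRE core was searched as GAAA, any 2 bases and GAAA again, and the GAS core as TTC, any 3 bases and GAA, on both strands and with overlapping matches allowed. An ISRE core was found in 13 of the 31 genes (41.9%), beside 3.99% of the 27025 genes in the table, and a GAS core in 9 (29%), beside 9.55%. Of the 6 genes lower in MAR1INT than in BaP, 5 had an ISRE core (Gbp3, Oas1a, Ifit3, Bst2 and Ifitm2, but not Oasl2). Of the 6 higher genes, 4 had an entry (Ifitm1, Irf1, Irf9 and Samd9l) and none of these held an ISRE core in its window. Of the 20 genes with an entry that were tested and not called, 8 held one. This split was noticed after the calls were known and was not tested. From BaP to MAR1INT the 13 genes with an ISRE core had a median log2 change of -0.03 and changes from -3.37 to 1.001. The 17 tested genes with no such match had a median of 0.56 and changes from -1.40 to 2.27, and the 9 tested genes with no entry a median of -0.56 and changes from -1.34 to 1.60. The 3 ranges overlapped. The start site used for Ifitm1 lies 647 bases inside the span that the files give the gene, so that the window is not at the 5′ end of that span.

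The 250 bases before the start site are shown for the called genes that held a match, 5′ to 3′ in the direction of the gene, with the letters of each match in capitals. In Oas1a, Ifitm2 and Bst2 the ISRE core reads in the gene's direction, and in Gbp3 and Ifit3 it reads on the opposite strand. The windows are chr3:142559794-142560043 (plus strand) for Gbp3, chr5:120907526-120907775 (minus) for Oas1a, chr19:34583279-34583528 (plus) for Ifit3, chr8:71537473-71537722 (minus) for Bst2, chr7:140955962-140956211 (minus) for Ifitm2 and chr11:53769764-53770013 (plus) for Irf1.
Gbp3: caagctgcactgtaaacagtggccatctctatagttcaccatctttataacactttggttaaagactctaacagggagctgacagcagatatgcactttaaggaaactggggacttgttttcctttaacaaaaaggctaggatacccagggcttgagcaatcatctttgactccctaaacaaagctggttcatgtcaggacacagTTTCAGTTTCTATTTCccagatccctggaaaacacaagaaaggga
Oas1a: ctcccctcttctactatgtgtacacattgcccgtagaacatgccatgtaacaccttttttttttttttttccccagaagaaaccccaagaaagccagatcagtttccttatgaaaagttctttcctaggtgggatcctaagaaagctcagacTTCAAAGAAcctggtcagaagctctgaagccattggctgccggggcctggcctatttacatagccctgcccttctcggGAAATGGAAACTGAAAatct
Ifit3: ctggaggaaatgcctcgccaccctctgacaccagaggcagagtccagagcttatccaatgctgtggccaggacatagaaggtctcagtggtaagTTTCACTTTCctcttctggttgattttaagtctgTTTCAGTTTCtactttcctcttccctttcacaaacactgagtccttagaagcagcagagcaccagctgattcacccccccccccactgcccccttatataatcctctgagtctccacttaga
Bst2: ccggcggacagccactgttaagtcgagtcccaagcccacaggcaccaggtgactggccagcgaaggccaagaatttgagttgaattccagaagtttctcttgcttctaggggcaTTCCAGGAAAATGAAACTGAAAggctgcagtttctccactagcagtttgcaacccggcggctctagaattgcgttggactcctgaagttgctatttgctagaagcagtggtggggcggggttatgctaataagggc
Ifitm2: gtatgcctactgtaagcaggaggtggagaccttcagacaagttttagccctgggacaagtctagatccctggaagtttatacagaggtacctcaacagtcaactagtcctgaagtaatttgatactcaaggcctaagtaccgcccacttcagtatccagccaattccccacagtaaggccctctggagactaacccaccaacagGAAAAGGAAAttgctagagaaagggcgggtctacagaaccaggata
Irf1: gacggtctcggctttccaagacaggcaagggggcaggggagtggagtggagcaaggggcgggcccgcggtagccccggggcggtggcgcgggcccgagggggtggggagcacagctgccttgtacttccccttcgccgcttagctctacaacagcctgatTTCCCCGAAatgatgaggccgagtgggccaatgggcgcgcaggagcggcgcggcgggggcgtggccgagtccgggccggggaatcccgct

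The first letter of the nearest ISRE match stands 14 bases before the start site in Oas1a, 39 in Gbp3, 46 in Ifitm2, 122 in Ifit3 and 124 in Bst2. In Oas1a, Bst2 and Gbp3 a pair of ISRE matches overlap, so that the repeat runs on as one block of capitals. The GAS match of Bst2 overlaps its ISRE block, whereas that of Oas1a stands apart, 98 bases before the start site. Irf1 is the 1 higher gene with a match of either kind, a GAS core 90 bases before its start site. A match is a run of letters, and binding was not measured.

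Of the 4 signalling factors of the list, 2 were called, both higher in MAR1INT than in BaP, where 11.1% of all tested genes were called higher. Irf1, an early transcription factor of the gamma and type I responses (chr11:53770014-53778374, mm10), was at 40.4 and 34.9 TPM in BaP, 52.3 and 72.5 TPM in MAR1HI and 99.2 and 74.8 TPM in MAR1INT. All 3 populations were apart, each library of the next being higher than both of the one before. Its log2 change from BaP to MAR1INT was 1.18 ± 0.28 (SE; limma adjusted p = 0.0118). Irf9, the DNA-binding partner of STAT2 (chr14:55603985-55610030), was at 36.2 and 32.2 TPM in BaP, 49.9 and 61.1 TPM in MAR1HI and 78.0 and 79.5 TPM in MAR1INT. It too stepped up without overlap, by 1.18 ± 0.25 from BaP to MAR1INT (limma adjusted p = 0.0073). Both calls held in the 10 processing alternatives and were lost without either BaP library (limma adjusted p from 0.0516 to 0.0984). Irf7, which amplifies the type I response, went from 11.2 and 12.9 TPM in BaP through 14.1 and 18.4 TPM to 18.8 and 21.1 TPM in MAR1INT, with no overlap, but missed the threshold (0.69 ± 0.35, limma adjusted p = 0.164). Stat2, the partner of Irf9, ranged from 22.1 to 39.2 TPM, and its MAR1HI libraries overlapped those of both other populations.

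Among the sensors, Zbp1 was called. It encodes a receptor for left-handed nucleic acid that can trigger necroptosis (chr2:173206612-173218922). It was at 10.7 and 10.6 TPM in BaP, 13.7 and 21.7 TPM in MAR1HI and 32.4 and 36.2 TPM in MAR1INT. The 3 populations did not overlap, and the log2 change from BaP to MAR1INT was 1.60 ± 0.35 (limma adjusted p = 0.00849). Trim25, a ubiquitin ligase that helps activate the RNA sensor RIG-I, was at 13.1 and 13.6 TPM in BaP, 12.4 and 20.3 TPM in MAR1HI and 27.0 and 28.5 TPM in MAR1INT. The MAR1INT libraries were above all others, and the test against BaP missed the threshold (0.998 ± 0.36, limma adjusted p = 0.0596). Trim25 was called higher with FPKM, after quantile normalization, after median-of-ratios scaling and when only those 2 groups were fitted. Ifih1 (the RNA sensor MDA5) and Dhx58 (its partner LGP2) stayed between 0.62 and 5.09 TPM in every library and were not called. Zbp1 was lost as a call without either BaP library (limma adjusted p = 0.0764 without BaP replicate 1).

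The IFIT, OAS and MX families, classical antiviral effectors, were all low, and the members called were lower in MAR1INT. Ifit3, which belongs to a family of proteins that bind foreign RNA (chr19:34583529-34588982), was at 11.99 and 8.96 TPM in BaP, 3.13 and 3.72 TPM in MAR1HI and 1.81 and 3.62 TPM in MAR1INT. Both BaP libraries were above the other 4, whose values overlapped. The change from BaP to MAR1INT was -1.66 ± 0.45 (limma adjusted p = 0.0203), and it was not called in the unfiltered table, after quantile normalization or without either BaP library. Its near-identical neighbour Ifit3b was at 4.66 and 3.25 TPM in BaP and 2.70 and 9.52 TPM in MAR1INT, and reads of the pair may have been divided between them. Ifit1 and Ifit2 were not called. Ifit2 ranged from 14.2 and 7.65 TPM in BaP to 5.62 and 3.24 TPM in MAR1INT, and Ifit1 differed mainly within MAR1INT, at 3.04 and 12.9 TPM.

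Oas1a makes the short oligoadenylates that activate RNase L (chr5:120896257-120907525). It was at 18.0 and 16.1 TPM in BaP, 10.95 and 16.5 TPM in MAR1HI and 4.22 and 3.45 TPM in MAR1INT. Both MAR1INT libraries lay under the other 4, while BaP and MAR1HI overlapped. Oas1a was lower in MAR1INT by -1.90 ± 0.40 against BaP (limma adjusted p = 0.00663) and by -1.58 ± 0.40 against MAR1HI (limma adjusted p = 0.0263). The first call was lost without either BaP library, and the second without any 1 of the 4 BaP and MAR1HI libraries, in the unfiltered table, after quantile normalization and when only MAR1INT and MAR1HI were fitted. Oas1a sits in a cluster of close copies, so its level depends on how shared reads were assigned.

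Oasl2, a ubiquitin-like relative that helps RNA sensing (chr5:114896934-114912245), was at 5.30 and 6.52 TPM in BaP, 2.38 and 2.23 TPM in MAR1HI and 1.30 and 1.95 TPM in MAR1INT. The 3 populations stepped down without overlap. Its change from BaP to MAR1INT of -1.40 ± 0.41 (limma adjusted p = 0.0294) was among the less stable, lost in 3 of 9 processing alternatives and without BaP replicate 1, BaP replicate 2 or MAR1INT replicate 1. Oas3 went the other way in level, from 2.96 and 3.73 TPM in BaP to 6.87 and 8.53 TPM in MAR1INT, and was not called (1.001 ± 0.42, limma adjusted p = 0.102). Oas2 did not pass 2.52 TPM. Oasl1 was listed at 0 in MAR1INT replicate 1 and at 11.4 TPM in MAR1INT replicate 2, so that its mean says little about the population. Mx1 and Mx2 encode GTPases of the antiviral response, and the Mx1 allele of C57BL/6 mice is known to be defective. Mx1 was at 2.10 and 3.23 TPM in BaP and at 0 and 1.05 TPM in MAR1INT (-1.34 ± 0.47, limma adjusted p = 0.0567), and Mx2 did not pass 3.38 TPM.

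The 2 guanylate-binding proteins of the list, GTPases that attack the membranes around intracellular pathogens, differed. Gbp3 (chr3:142560052-142573212) was at 14.3 and 8.999 TPM in BaP, 2.24 and 6.77 TPM in MAR1HI and 0 and 0.44 TPM in MAR1INT. The populations stepped down without overlap, and in MAR1INT the gene was nearly absent from the tables. The log2 change was -3.37 ± 0.53 from BaP to MAR1INT (limma adjusted p = 0.00159) and -2.07 ± 0.53 from MAR1HI to MAR1INT (limma adjusted p = 0.0281). The first was called in all 16 alternatives, with a size that depended on the value added before taking logs (-5.63 to -1.66). The second was lost when any of the 4 BaP and MAR1HI libraries was left out, at a pseudocount of 5, in the unfiltered table and after quantile normalization. Gbp2 was instead at 33.5 and 28.2 TPM in BaP, 50.3 and 63.4 TPM in MAR1HI and 63.2 and 44.8 TPM in MAR1INT. Its BaP libraries were the lowest of the 6, and the differences were not called (0.77 ± 0.29 for MAR1INT against BaP, limma adjusted p = 0.0713). Gbp genes lie in clusters of similar sequence, which makes the division of reads between copies uncertain.

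**Figure D2:**
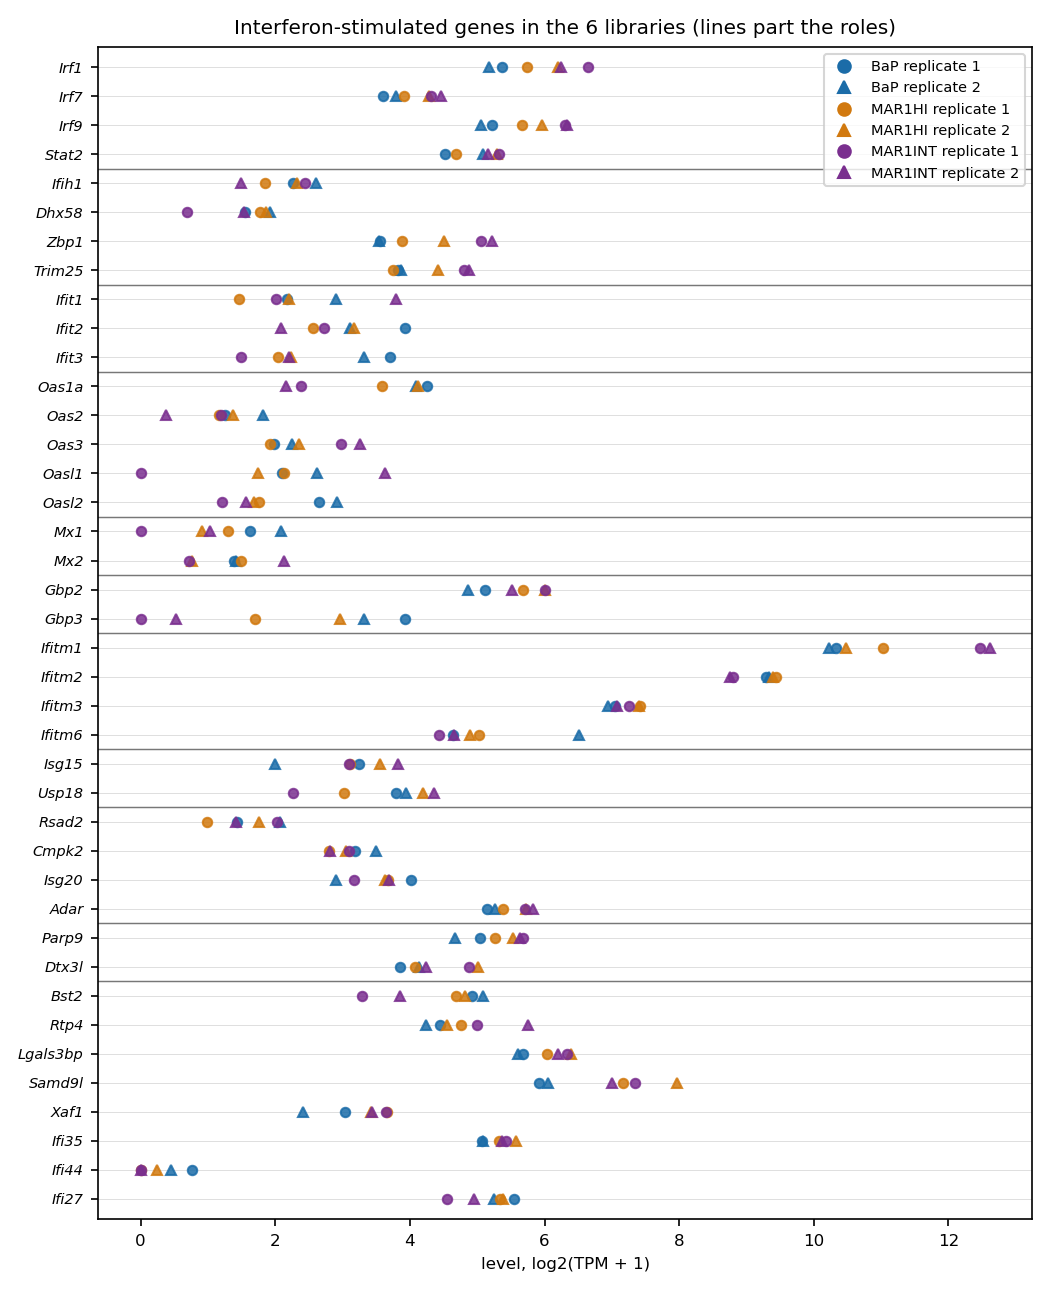
Level of each of the 40 interferon-stimulated genes in the 6 libraries as log2(TPM + 1) (horizontal axis), coloured by population and shaped by replicate, with lines between roles. Most genes lie under 7 on this scale, the Ifitm1 points of MAR1INT lie beyond 12, and Gbp3 falls from 3.93 in BaP replicate 1 to 0 in MAR1INT replicate 1.

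The IFITM family, small membrane proteins that hinder the fusion of viruses with cells, summed to 2065 and 2048 TPM in BaP, 2976 and 2293 TPM in MAR1HI and 6310 and 6845 TPM in MAR1INT, more than the other 36 genes in every library. Its genes lie close together on chromosome 7, with Ifitm2 at chr7:140954839-140955961, Ifitm1 at chr7:140967429-140969827, Ifitm3 at chr7:141009590-141010744 and Ifitm6 at chr7:141015812-141016892, and they did not move as one. Ifitm1 was at 1282 and 1190 TPM in BaP, 2079 and 1424 TPM in MAR1HI and 5694 and 6254 TPM in MAR1INT. The group means were 1236 ± 65.05, 1752 ± 463 and 5974 ± 396 TPM (SD, n = 2 each), and the populations were ordered without overlap. Ifitm1 was 4.83 times as high in MAR1INT as in BaP (log2 change 2.27 ± 0.21, limma adjusted p = 0.000137) and 3.41 times as high as in MAR1HI (1.79 ± 0.21, limma adjusted p = 0.000725). Both were called in all 16 alternatives, at log2 changes of 2.03 to 2.34 and 1.52 to 2.09. Set against the median of all tested genes, the log2 changes were 2.43 and 2.15. Ranked by TPM among all genes, Ifitm1 stood at places 156 and 160 in the BaP libraries, at 102 and 118 in those of MAR1HI and at 15 and 11 in those of MAR1INT.

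Ifitm2, its neighbour, went the other way. It was at 628.0 and 645.4 TPM in BaP, 694.6 and 670.5 TPM in MAR1HI and 444.2 and 433.1 TPM in MAR1INT. The MAR1INT libraries lay under the other 4, and the duplicates were close (439 ± 7.84 TPM in MAR1INT, SD, n = 2). The log2 change was -0.64 ± 0.17 against MAR1HI (limma adjusted p = 0.0347) and -0.54 ± 0.17 against BaP (limma adjusted p = 0.0405). Set against the median of all tested genes they were smaller, -0.28 and -0.37. These calls were near the threshold, and every setting that lost them kept the sign. The first was lost without any 1 of the 6 libraries (limma adjusted p from 0.0716 to 0.147), and the second without any 1 of the BaP or MAR1INT libraries. In the 10 processing alternatives they were lost in 5 and 3. Ifitm3 was at 131.0 and 122.1 TPM in BaP, 170.7 and 169.0 TPM in MAR1HI and 151.6 and 134.3 TPM in MAR1INT. Its MAR1HI libraries were the highest, but no comparison was called, and its change from BaP to MAR1INT (0.17 ± 0.20, limma adjusted p = 0.554) turned negative with FPKM. Ifitm6 was at 24.0 and 90.5 TPM in BaP and between 20.5 and 31.6 TPM elsewhere, so that BaP replicate 2 alone set its high mean.

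**Figure D3:**
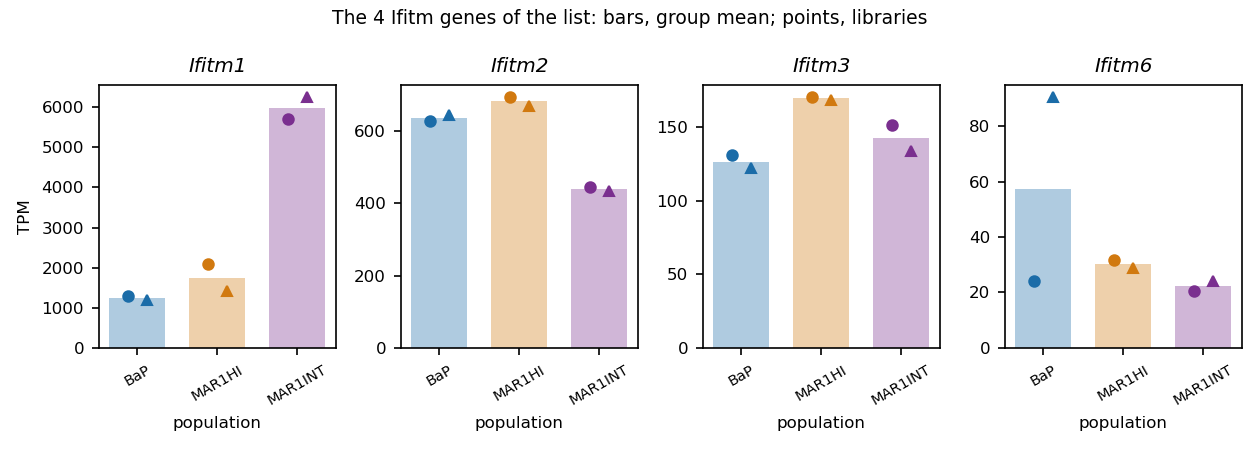
TPM (vertical axis, from 0 in each panel, scales differ) of Ifitm1, Ifitm2, Ifitm3 and Ifitm6 in the 3 populations; bars are means of 2 libraries and points are libraries (circle, replicate 1; triangle, replicate 2). Ifitm1 is highest in MAR1INT at 5694 and 6254 TPM, Ifitm2 is lowest there at 444.2 and 433.1 TPM, and Ifitm6 is high in 1 BaP library only.

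Isg15, a ubiquitin-like modifier, and Usp18, the protease that removes it and brakes the receptor, were not called in any comparison. Isg15 was at 8.46 and 2.97 TPM in BaP, 7.60 and 10.7 TPM in MAR1HI and 7.53 and 13.2 TPM in MAR1INT, with overlap in each comparison. Usp18 differed more within than between populations, at 7.10 and 17.4 TPM in MAR1HI and 3.82 and 19.4 TPM in MAR1INT. The nucleotide and RNA enzymes were not called either. Rsad2 (viperin) stayed between 0.98 and 3.19 TPM and its genomic neighbour Cmpk2, a mitochondrial nucleotide kinase, between 5.94 and 10.3 TPM. The exonuclease gene Isg20 ranged from 6.50 to 15.2 TPM. Adar, which edits adenosine in double-stranded RNA, was at 34.5 and 37.4 TPM in BaP and at 51.1 and 55.6 TPM in MAR1INT, without overlap (0.56 ± 0.27, limma adjusted p = 0.141).

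Parp9 and Dtx3l encode partners that modify histones and viral proteins, and they overlap head to head on opposite strands. Whether the counting used strand is not given in the sources used here. Parp9 was at 31.9 and 24.5 TPM in BaP, 37.2 and 45.2 TPM in MAR1HI and 50.2 and 48.8 TPM in MAR1INT. It stepped up without overlap and just missed the threshold (0.80 ± 0.28 for MAR1INT against BaP, limma adjusted p = 0.0563). Dtx3l was at 13.5 and 16.5 TPM in BaP, and its other 4 libraries ranged from 15.9 to 31.3 TPM.

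Of the membrane proteins and other effectors, Samd9l, Rtp4 and Bst2 were called. Samd9l (chr6:3372258-3399571) encodes an antiviral brake on growth, known in people for inherited marrow failure. It was at 59.7 and 65.5 TPM in BaP, 142.1 and 248.7 TPM in MAR1HI and 161.8 and 127.4 TPM in MAR1INT. Both BaP libraries were under the other 4, and those overlapped. The log2 change against BaP was 1.57 ± 0.29 in MAR1HI (limma adjusted p = 0.0284) and 1.19 ± 0.29 in MAR1INT (limma adjusted p = 0.0134); these 2 comparisons share the BaP libraries. The second was lost in the unfiltered table and without either BaP library.

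Bst2 encodes tetherin, which holds budding virus at the cell surface (chr8:71534262-71537437). It was at 29.4 and 32.8 TPM in BaP, 24.8 and 27.3 TPM in MAR1HI and 8.76 and 13.4 TPM in MAR1INT. The 3 populations stepped down without overlap, by -1.43 ± 0.34 from BaP to MAR1INT (limma adjusted p = 0.0115) and by -1.19 ± 0.34 from MAR1HI to MAR1INT (limma adjusted p = 0.0412). The first call was lost without either BaP library, and the second in 5 of 10 processing alternatives and without any 1 library other than MAR1INT replicate 2. Bst2 is also a marker of plasmacytoid dendritic cells. The 11 markers of that cell, Bst2 included, summed to 51.4 and 82.2 TPM in BaP, 56.0 and 61.1 TPM in MAR1HI and 62.4 and 60.6 TPM in MAR1INT, so that the sums overlapped. Within them Runx2 was higher in MAR1INT than in BaP (38.1 and 42.6 TPM against 6.31 and 7.90 TPM), Siglech was at 0.58 and 7.60 TPM in BaP and at 1.28 TPM or less elsewhere, and Pacsin1 and Clec4g stayed under 1 TPM in every library.

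Rtp4, which helps receptors reach the membrane and also limits viral replication (chr16:23609919-23614222), was at 20.8 and 17.9 TPM in BaP, 26.0 and 22.4 TPM in MAR1HI and 30.9 and 52.9 TPM in MAR1INT. The populations stepped up without overlap, with a spread in MAR1INT (41.9 ± 15.6 TPM, SD, n = 2) that left the change of 1.03 ± 0.34 close to the threshold (limma adjusted p = 0.0464). It was lost in 8 of 10 processing alternatives and without any 1 library except MAR1INT replicate 1. Lgals3bp, a secreted glycoprotein, was at 50.1 and 47.7 TPM in BaP, 64.3 and 82.8 TPM in MAR1HI and 79.7 and 72.6 TPM in MAR1INT. Its BaP libraries were the lowest 2, and the difference from MAR1INT was not called (0.63 ± 0.25, limma adjusted p = 0.0826). It was called after quantile normalization, after median-of-ratios scaling and when only those 2 groups were fitted. Xaf1, a promoter of apoptosis, and Ifi35, a partner of the STAT regulator Nmi, were likewise lowest in BaP and not called, at 7.17 and 4.30 TPM and at 32.6 and 33.1 TPM there. Ifi27 was at 45.5 and 37.1 TPM in BaP and at 22.5 and 29.8 TPM in MAR1INT (-0.65 ± 0.29, limma adjusted p = 0.119), and it overlaps Ifi27l2a.

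Across the 3 populations, 7 tested members stepped up from BaP through MAR1HI to MAR1INT with no overlap between neighbouring groups (Irf1, Irf7, Irf9, Zbp1, Ifitm1, Parp9 and Rtp4), 17.9% of the list beside 7.82% of all tested genes. A stepwise fall was seen in 3 (Oasl2, Gbp3 and Bst2), 7.69% beside 8.82%. These are counts of patterns, without a test of their own.

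The summed level of the 40 genes was 2689 and 2647 TPM in BaP, 3709 and 3302 TPM in MAR1HI and 7215 and 7739 TPM in MAR1INT. Ifitm1 alone supplied 47.7% and 45.0% of the BaP sums, 56.1% and 43.1% of the MAR1HI sums and 78.9% and 80.8% of the MAR1INT sums. The 36 genes outside the IFITM family summed to 623.9 and 598.9 TPM in BaP, 732.9 and 1009 TPM in MAR1HI and 904.8 and 894.4 TPM in MAR1INT.

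The genes around the list in the pathway were read in the same way. The interferon genes themselves were near or at 0. None of the 13 was tested, Ifnb1 was listed at 0 in all 6 libraries, the highest value was 3.49 TPM (Ifna4 in BaP replicate 2), and Ifng did not pass 0.071 TPM. The receptors and the JAK-STAT core had 11 of 12 genes tested, of which 5 were higher (45.5%, beside 11.1% of all genes) and none lower (beside 20.4%) in MAR1INT than in BaP, with a list median of 0.33. In the other comparisons 1 gene (Jak2) was higher in MAR1HI than in BaP (9.09%, beside 1.83% of all genes). Ifnar2 and Jak2 were higher in MAR1INT than in MAR1HI (18.2%, beside 2.29%). The call on Jak2 against BaP held in 5 of 16 alternatives and that on Ifnar2 in 5 of 16, in none of the fits without 1 library; Jak2 against MAR1HI held in 12 of 16 and was lost without either MAR1HI library. Jak2, the kinase of the gamma receptor and of many cytokine receptors, was at 232 and 231 TPM in BaP, 381 and 485 TPM in MAR1HI and 785 and 763 TPM in MAR1INT. It stepped up without overlap (1.73 ± 0.19 from BaP to MAR1INT, limma adjusted p = 0.000309, called in all 16 alternatives).

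The type I receptor and the gamma receptor each had 1 chain that rose and 1 that was not called, and of the type III receptor Il10rb was not called (0.03) and Ifnlr1 was under the filter. Ifnar2 of the type I receptor was at 78.6 and 82.8 TPM in BaP and at 213 and 186 TPM in MAR1INT (1.29 ± 0.24, limma adjusted p = 0.00341), while Ifnar1 stayed between 18.1 and 26.0 TPM in all 6 libraries (0.26 ± 0.34, limma adjusted p = 0.585). Ifngr2 of the gamma receptor was at 24.8 and 21.7 TPM in BaP and at 73.5 and 68.2 TPM in MAR1INT (1.57 ± 0.28, limma adjusted p = 0.00307). Ifngr1 was at 142 and 109 TPM in BaP and at 87.0 and 78.3 TPM in MAR1INT (-0.59 ± 0.24, limma adjusted p = 0.0886). Not called as reported, Ifngr1 was called lower with FPKM, after quantile normalization and after median-of-ratios scaling. The difference between the chains of a receptor was not tested. Jak1 rose from 93.1 and 113 TPM in BaP to 265 and 216 TPM in MAR1INT (1.21, limma adjusted p = 0.0069; not called without BaP replicate 1). Irf2, a factor that competes with Irf1, rose by 1.24 (limma adjusted p = 0.0106; lost without either BaP library). Tyk2, a kinase of the type I receptor, was not called and ranged from 12.8 to 26.2 TPM.

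Of the 19 genes of nucleic acid sensing upstream of interferon, 18 were tested, and 5 were lower (27.8%, beside 20.4% of all genes) and 1 higher (5.56%, beside 11.1%) in MAR1INT than in BaP, with a list median of -0.08. The largest changes were those of the endosomal DNA receptor Tlr9 (10.9 and 5.89 TPM in BaP, 1.16 and 1.16 TPM in MAR1INT), the cytosolic DNA sensor Cgas, the kinase Ikbke and the RNA receptor Tlr8, by -2.07, -1.95, -1.76 and -1.74. Cgas was also the 1 gene of this list called between MAR1INT and MAR1HI (5.56%, beside 14.5% of all genes called lower). Cgas was at 0.80 and 0.91 TPM in MAR1INT against 7.57 and 12.1 TPM in MAR1HI (-2.52 ± 0.44, limma adjusted p = 0.00534). It was not called there without MAR1HI replicate 2 (limma adjusted p = 0.0821), nor against BaP without BaP replicate 1, and both calls were lost in the unfiltered table. Tlr9 and Tlr8 were not called without BaP replicate 1, and Ikbke was lost without any of the 4 BaP and MAR1HI libraries. None was called between MAR1HI and BaP by limma. Of the 11 brakes on interferon signalling, Trim24 and Usp25 were higher in MAR1INT than in BaP (0.997 and 0.954), 18.2% beside 11.1% of all genes, and none was lower. Both calls were lost without either BaP library, Trim24 also without MAR1INT replicate 2 and Usp25 without MAR1INT replicate 1.

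A further 44 tested interferon-stimulated genes, of 47 listed, had calls in both directions, with 8 higher (18.2%, beside 11.1% of all genes) and 9 lower (20.5%, beside 20.4%) in MAR1INT than in BaP and a median of -0.07. Slfn2, a gene known for keeping T cells and monocytes quiescent, was at 64.9 and 86.3 TPM in BaP, 182 and 230 TPM in MAR1HI and 874 and 766 TPM in MAR1INT. Its rise of 3.43 ± 0.23 from BaP to MAR1INT (limma adjusted p = 3.34e-05) exceeded the rise of every tested member of the 40. The fall of Gbp3 was close to it in size at -3.37, and ranged from -5.63 to -1.66 over the alternatives. The nuclear DNA-binding genes Ifi204, Ifi211 and Ifi203 fell most, by -3.78, -3.55 and -3.18. Ifi204 was at 14.3 and 19.5 TPM in BaP, 3.05 and 6.73 TPM in MAR1HI and 0 and 0.67 TPM in MAR1INT. These 3 genes belong to a family of close copies, so the division of reads between them is uncertain. Between MAR1INT and MAR1HI 3 of the 44 were higher (6.82%, beside 2.29% of all genes) and 5 lower (11.4%, beside 14.5%). Ifi203, Ifi204 and Ifi211 were among the lower, and each of these calls was lost without either MAR1HI library and in the unfiltered table. Between MAR1HI and BaP 1 was higher (Slfn2, 2.27%, beside 1.83% of all genes) and 1 lower (Ifi205, 2.27%, beside 0.662%). Ifi205 was at 3.84 and 9.71 TPM in BaP and listed at 0 in every other library, so it passed the filter through BaP alone. The same held for Cxcl10, among the 9 lower in MAR1INT than in BaP (3.94 and 1.73 TPM in BaP, 0.80 TPM or less elsewhere). Such genes could enter these counts only as higher in BaP. The Slfn2 call against MAR1HI is among those held in all 16 alternatives, whereas that between MAR1HI and BaP was lost without any of the 4 libraries of those groups, and that on Ifi205 without any of them but BaP replicate 1. The gamma-inducible GTPases and their relatives had 12 of 15 genes tested, with Igtp higher (8.33%, beside 11.1% of all genes) and Ciita and Gbp9 lower (16.7%, beside 20.4%) in MAR1INT than in BaP, and none called in the other comparisons by limma. Igtp was lost without either BaP library, and Gbp9 was called in 7 of 15 alternatives and not without BaP replicate 1, either MAR1HI library or MAR1INT replicate 1. Ciita, the master regulator of class II genes, was at 3.15 and 1.73 TPM in BaP and listed at 0 in MAR1INT, and the class II genes among the dendritic cell markers were lower there too.

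**Figure D4:**
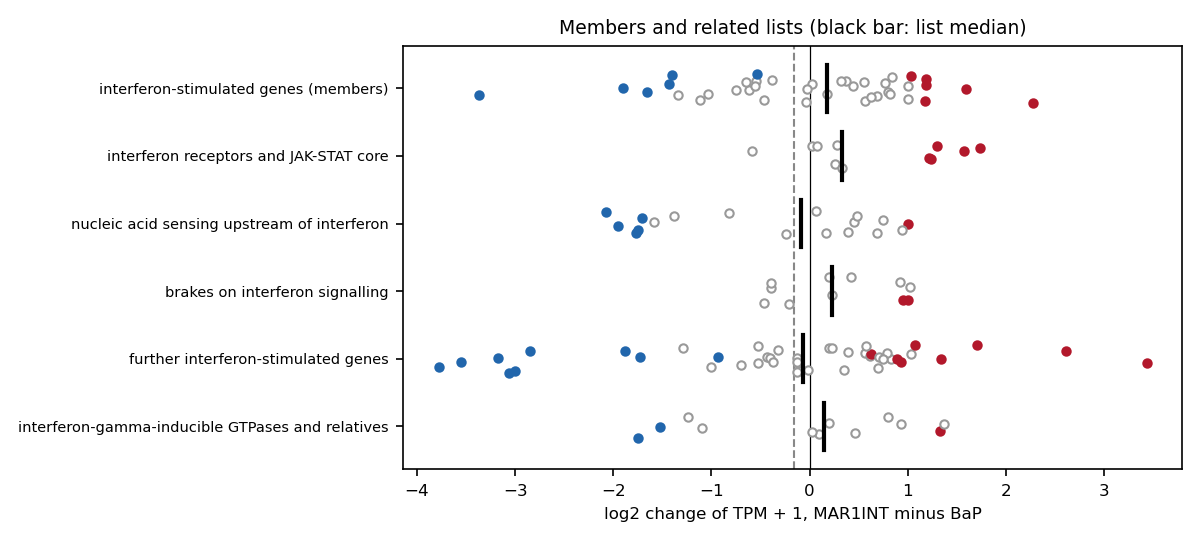
Log2 change of TPM + 1 from BaP to MAR1INT (horizontal axis) for each tested gene of the interferon-stimulated list and of 5 related lists; filled points passed an adjusted p of 0.05 (red higher, blue lower), black bars are list medians and the dashed line is the median of all tested genes at -0.16. Called genes lie on both sides in 4 of the lists, and the receptor and JAK-STAT list and the brakes have called genes on the higher side only.

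Duplicates showed how far single values of the list can be trusted. The median absolute log2 difference between replicates was 0.26 for the members in BaP, 0.36 in MAR1HI and 0.39 in MAR1INT, beside 0.27, 0.44 and 0.35 for all tested genes. Replicates differed by more than 1 on the log2 scale for 3 members in BaP (Ifitm6, Isg15 and Isg20), 2 in MAR1HI (Gbp3 and Usp18) and 5 in MAR1INT (Oasl1, Usp18, Ifit1, Mx2 and Mx1). The MAR1INT share, 12.8%, stood beside 17.8% of all tested genes. Apart from Gbp3, none of these genes was among the 12 called members. This follows in part from limma itself, which weighs a change against the spread between replicates. With 2 libraries on each side, the smallest p of an exact permutation test is 0.333, so none was run on single genes.

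**Figure D5:**
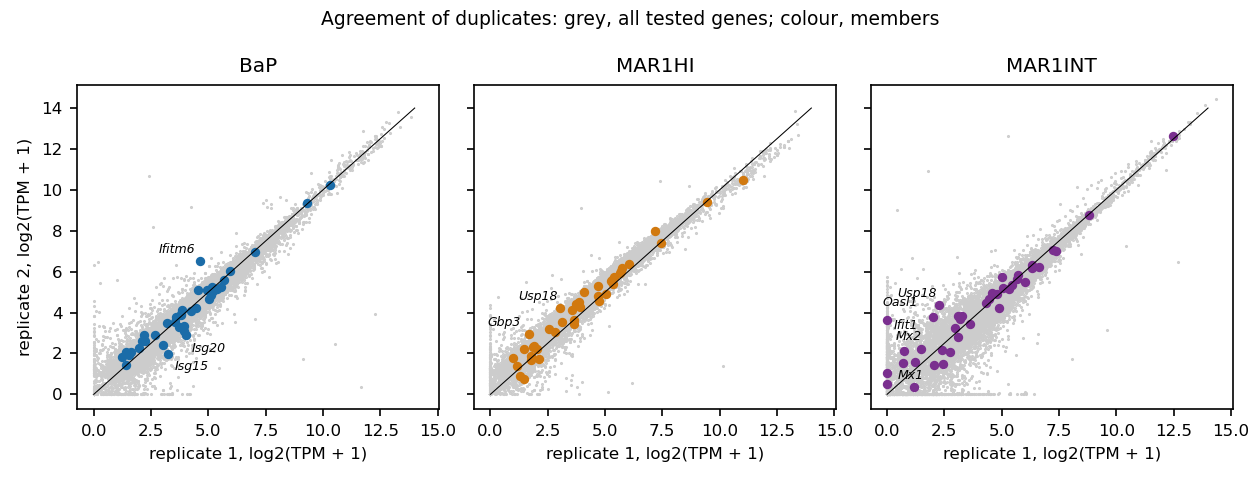
Replicate 2 against replicate 1 as log2(TPM + 1) in each population; grey points are all tested genes, coloured points are the 39 tested interferon-stimulated genes, and the line marks equal values. Named genes differ by more than 1 between replicates, 3 in BaP, 2 in MAR1HI and 5 in MAR1INT, and most of those in MAR1INT lie at low levels.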

How the data were processed

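RNA-seq libraries of 3 sorted populations (2 each) were deposited as 1 gene table per library. Extraction used TRIZol LS and library construction the SureSelectXT RNA direct kit, per the labels' protocols. Trimmomatic, HISAT2, StringTie and the mm10 build are named in the submitters' processing notes. Their versions, the annotation release and whether strand was used are not given in the sources used here. The deposited TPM values, normalized by the authors for gene length and library, sum to the same total in each table. FPKM was deposited beside them and served as an alternative, and the deposited coverage (mean read depth over a gene) gave the aligned gigabases, since the ratio of coverage to FPKM is set by library size. Repeated rows of a gene ID (137 to 484 per library) were summed.

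Gene IDs were matched to symbols for 24462 of 24532 IDs. The members and all gene, marker and pathway lists were chosen with earlier results of these data known. Tests used limma 3.58.1 in R 4.3.3 on log2(TPM + 1), with 1 term per group, all 6 libraries, a trended variance prior (3 residual degrees of freedom, median prior 6.39) and Benjamini-Hochberg adjustment over the 11337 genes at 1 TPM or more in at least 2 libraries. The script was tested on simulated data. Fold changes on this scale understate changes of low genes. Every library's value is given for members called in any comparison and the 6 with the highest mean TPM. For related lists up to 4 called genes were named, with Ifnar1, Ifnar2, Ifngr1, Ifngr2, Jak1 and Tyk2; 1 further gene of that rule is not reported here. Of the 40 members, all positions in the tables overlapped the RefSeq gene on GRCm38.p6, the assembly behind mm10, and promoter sequences come from RefSeq on that build. The list for neutrophils summed to 3105 to 10290 TPM and that for T and NK cells to 33.5 to 384.9 TPM. Nkg7 supplied most of the T and NK sum (371.3 of 373.2 TPM in BaP replicate 1). Cd3g, Cd8a, Ncr1 and Klrb1c stayed under 1 TPM in every library. B and plasma cells summed to 14.8 to 43.0 TPM, erythroid cells to 635.8 to 2799 TPM and megakaryocytes and platelets to 267.1 to 545.1 TPM. Endothelial and stromal cells summed to 159.2 to 298.4 TPM and plasmacytoid dendritic cells to 51.4 to 82.2 TPM.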

Additional observations from a re-analysis of the deposited data

How the results depend on the processing

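Settings changed one at a time were 10 processing alternatives and 6 fits without 1 library each, in which the lone library of a group is assumed to vary like the others. Of the 18 calls of a member in a comparison, 8 held in all 10 processing alternatives and 3 in all 16: Ifitm1 in MAR1INT against BaP and against MAR1HI, and Gbp3 in MAR1INT against BaP. The number of members called between MAR1INT and BaP, 12 as reported, ranged from 2 to 15 with 1 library left out and stayed within 1.5 times of 12 in every processing alternative. Between MAR1INT and MAR1HI the 5 became 1 with no filter on low values, 8 after median-of-ratios scaling, 2 with only the 2 groups compared, 3 with a replicate block, and 1 to 6 with 1 library left out. Between MAR1HI and BaP the 1 became 0 with a pseudocount of 0.1, with no filter and with no trend in the variance prior, 3 with only the 2 groups compared, and 0 to 3 with 1 library left out. Every such fit has fewer residual degrees of freedom, whichever library is left out, and the cause of the changed counts was not tested. Over all tested genes, fewer were called in each comparison without a BaP or MAR1HI library, and more without a MAR1INT library. A call lost without a BaP or MAR1HI library may therefore not be particular to the gene. Some members were called between MAR1INT and BaP in alternatives only. Gbp2, Lgals3bp, Trim25, Oas3 and Parp9 were higher after both quantile normalization and median-of-ratios scaling, and Ifit2, Mx1 and Ifi27 were lower with FPKM. The change of Ifitm3 from BaP to MAR1INT reversed with FPKM, to -0.065 from 0.17, and the cause was not tested.

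Replicate differences correlated at 0.154 between BaP and MAR1HI, -0.0922 between BaP and MAR1INT and -0.0592 between MAR1HI and MAR1INT. Whether libraries of the same replicate number share mice or a sort cannot be told from these values. With the number as a replicate block, 1, 3 and 10 members were called in the 3 comparisons, in the order MAR1HI against BaP, MAR1INT against MAR1HI and MAR1INT against BaP. The median change over all tested genes from BaP to MAR1INT was -0.34 with FPKM, 0.11 after quantile normalization and -0.17 after median-of-ratios scaling, and that of the members -0.05, 0.47 and 0.16. Coverage limits what can be said of Ifi44, Mx1, Mx2, Oas2, Rsad2 and Dhx58, whose highest depth in any library was 2.10 to 9.20 reads.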
